A study of Saccharomyces cerevisiae with 12 samples.

Results

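The small nucleolar RNAs (snoRNAs) of budding yeast were the rows of a gene count table whose identifier starts with snR and a number, leaving out the spliceosomal RNAs that carry the same kind of name. There were 76 of them among 6219 rows. All 76 were annotated as snoRNAs in the R64 gene table, 47 as members of the box C/D class and 29 as members of the box H/ACA class by their known roles. Counts came from 12 libraries of 4 Saccharomyces cerevisiae strains, with 3 replicates per strain: the tup1(S649F) point mutant in MATa cells, its wild-type (WT) MATa counterpart, tup1(S649F) in MATalpha cells and WT MATalpha. Tup1 is a corepressor that works with Cyc8 and reaches promoters through DNA-binding proteins, and the study asked whether it also acts as a coactivator. Every strain was of the W303 background and carried the alleles ade2-1, can1-100, his3-11,15, trp1-1 and ura3-1 and the leu2 allele with mutations 3 and 112, and each group was a single strain, so a difference between groups is also a difference between single strains. Cells were in log phase at 30 °C in rich medium with 2% dextrose (optical density 0.6 to 0.8 at 660 nm), and rRNA was depleted from total RNA before a stranded paired-end library preparation. Whether replicates were grown separately is not in the labels, so a p-value here reflects only how the 12 samples vary, which may be technical. In RNA from whole cultures, fewer cells that make an RNA and less of that RNA per cell cannot be told apart.

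snoRNAs are short nuclear RNAs that guide the chemical modification of ribosomal RNA. Box C/D snoRNAs pair with rRNA and place a 2′-O-methyl group through the methyltransferase Nop1, while box H/ACA snoRNAs place pseudouridines through Cbf5. A few members act in the cleavage of the rRNA precursor, instead of or besides modification: U3 (encoded by snR17a and snR17b), U14 (snR128), snR30 and snR10. In yeast most are transcribed by RNA polymerase II from promoters of their own, some from shared precursors that are cut apart, some from introns of protein-coding genes, and snR52 by RNA polymerase III.

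Of all members tested, snR17b, one of the U3 genes, had the largest change in MATa. The genes lie at chrXV:780107-780596, plus strand (snR17a) and chrXVI:281056-281517, minus strand (snR17b). The first 300 bases of each span, which hold the known intron, are shown 5′ to 3′ from the RefSeq R64 genome (chrXV:780107-780406, plus strand; chrXVI:281218-281517, minus strand), with bases that differ between the copies, or have no counterpart, in capitals. Over 495 aligned positions the whole genes were 81.6% identical, and the longest identical run was 77 bases.
snR17a: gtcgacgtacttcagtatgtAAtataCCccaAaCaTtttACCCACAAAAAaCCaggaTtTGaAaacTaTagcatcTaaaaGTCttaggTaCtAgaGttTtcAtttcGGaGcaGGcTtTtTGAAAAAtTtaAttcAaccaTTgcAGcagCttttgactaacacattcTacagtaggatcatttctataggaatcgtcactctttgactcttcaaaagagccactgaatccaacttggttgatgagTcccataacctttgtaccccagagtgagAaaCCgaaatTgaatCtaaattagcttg
snR17b: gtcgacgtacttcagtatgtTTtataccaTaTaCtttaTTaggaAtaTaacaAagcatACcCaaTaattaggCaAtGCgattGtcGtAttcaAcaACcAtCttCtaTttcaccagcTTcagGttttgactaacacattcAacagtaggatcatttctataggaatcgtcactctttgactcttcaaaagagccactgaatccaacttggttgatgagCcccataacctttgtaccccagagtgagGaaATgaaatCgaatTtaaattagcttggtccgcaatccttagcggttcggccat
Reads from such runs could come from either gene, and how reads with several positions were counted is not given in the sources used here, so the split of counts between the U3 copies is uncertain. The span of snR17a also overlaps YOR235W on the same strand, which was not analysed here.

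Box C/D guides called in one or both mating types are shown next, with box C (TGATGA, near the 5′ end) and box D (CTGA, within the last 20 bases) in capitals. They lie at chrXI:364776-364876, plus strand (snR69), chrXI:38811-38911, plus strand (snR64), chrXVI:718700-718806, minus strand (snR51), chrXIII:297506-297593, plus strand (snR77) and chrXIII:297278-297364, plus strand (snR78).
snR69: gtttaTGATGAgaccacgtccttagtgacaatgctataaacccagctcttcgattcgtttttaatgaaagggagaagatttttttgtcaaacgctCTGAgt
snR64: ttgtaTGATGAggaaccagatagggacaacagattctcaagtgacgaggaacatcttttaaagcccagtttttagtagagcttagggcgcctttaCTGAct
snR51: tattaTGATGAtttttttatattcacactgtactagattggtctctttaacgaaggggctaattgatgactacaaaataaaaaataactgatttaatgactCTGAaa
snR77: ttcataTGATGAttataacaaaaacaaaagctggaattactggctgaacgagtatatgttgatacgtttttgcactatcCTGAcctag
snR78: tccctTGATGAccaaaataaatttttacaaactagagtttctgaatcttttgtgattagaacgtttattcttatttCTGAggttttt
TGATGA stood within 40 of 47 box C/D genes and 3 of 29 box H/ACA genes, and CTGA in the last 20 bases of 45 and 2.

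Box H/ACA members on which the comparisons turn are shown with the ACA of the 3′ end in capitals where the last 20 bases held one (snR82 at chrVII:316788-317055, plus strand; snR83 at chrXIII:626349-626654, plus strand, of which the last 300 bases, chrXIII:626355-626654, plus strand, are shown; snR44 at chrXII:856710-856920, plus strand; snR10 at chrVII:345986-346230, plus strand).
snR82: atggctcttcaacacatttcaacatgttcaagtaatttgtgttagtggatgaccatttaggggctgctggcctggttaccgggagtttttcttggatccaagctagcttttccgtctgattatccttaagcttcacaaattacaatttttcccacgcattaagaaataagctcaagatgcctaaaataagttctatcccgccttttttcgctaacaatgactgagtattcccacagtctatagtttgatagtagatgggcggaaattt
snR83: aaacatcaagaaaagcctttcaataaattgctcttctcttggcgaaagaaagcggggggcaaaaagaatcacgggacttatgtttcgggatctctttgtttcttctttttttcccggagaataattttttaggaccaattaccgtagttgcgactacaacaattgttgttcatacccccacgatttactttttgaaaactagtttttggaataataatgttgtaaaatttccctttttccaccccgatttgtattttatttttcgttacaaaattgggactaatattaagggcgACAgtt
snR44: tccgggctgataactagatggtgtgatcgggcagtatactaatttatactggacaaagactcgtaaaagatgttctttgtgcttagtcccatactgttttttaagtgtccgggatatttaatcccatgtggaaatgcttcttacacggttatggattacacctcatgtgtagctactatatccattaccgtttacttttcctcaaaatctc
snR10: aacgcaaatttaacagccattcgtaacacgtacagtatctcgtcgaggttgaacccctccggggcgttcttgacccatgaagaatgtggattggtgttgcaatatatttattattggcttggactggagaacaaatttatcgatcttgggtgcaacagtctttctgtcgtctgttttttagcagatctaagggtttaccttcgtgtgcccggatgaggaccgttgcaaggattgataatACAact
ACA stood in the last 20 bases of 20 of 29 box H/ACA genes and 15 of 47 box C/D genes. snR82 and snR44 had none in that window of the annotated span.

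Library totals ran from 5657714 to 9300353 counts, of which snoRNAs took 1.30%, 1.15% and 1.11% in the tup1 MATa libraries and 1.21%, 1.20% and 1.17% in WT MATa. They took 1.46%, 1.46% and 1.23% in tup1 MATalpha and 1.23%, 1.34% and 1.37% in WT MATalpha. The groups overlapped in each mating type. Replicate 1 of tup1 MATa stood apart from its 2 partners in this class: over the 74 snoRNAs tested, its level relative to the mean of replicates 2 and 3 had a median log2 ratio of 0.43, and 65 lay above 0. Over all 5654 rows tested the median was -0.01, 47.8% lay above 0 and single rows ran from -1.74 to 1.49. Replicate 1 also stood apart over all rows, not in this class alone. A chi-square of its counts, per degree of freedom, was 21.0 against replicate 2 and 28.3 against replicate 3. Between replicates 2 and 3 it was 4.08. For snoRNAs the same values were 30.8, 31.8 and 9.48. The same library was higher in other small stable RNAs, by 0.66 on the log2 scale for SCR1 (signal recognition particle RNA), 0.61 for RPR1 (RNase P RNA), 0.76 for NME1 (RNase MRP RNA) and a median of 0.49 for 4 spliceosomal RNAs. The cause was not tested. Values from the fit without this library are given beside the results it touches most. The mating genes STE2 and STE3 matched the mating type of every WT library, while tup1 MATalpha libraries held 472 to 701 CPM of STE2 against 5.19 to 5.90 CPM in WT MATalpha.

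Counts were concentrated in a few long members. snR17a held 21.5% of all snoRNA counts, snR37 19.0%, snR86 13.4% and snR30 9.44%, and 12 members together held 89.2%. Levels are given in CPM, read counts scaled to library size with TMM factors. Per kilobase of annotated length, the highest were snR37 (6174 CPM per kb in WT MATa), a pseudouridylation guide for the large-subunit rRNA, snR17a (4820 CPM per kb) and snR82 (2214 CPM per kb), another large-subunit guide. The annotated lengths of snR17a and snR17b include their intron, so their levels per kb of spliced RNA would be higher. The order of snR37 and snR17a over the spliced length was not tested. The median in WT MATa was 116 CPM per kb for the 26 members under 100 nt, 111 CPM per kb for the 30 of 100 nt to under 200 nt and 507 CPM per kb for the 20 of at least 200 nt. Across the 75 members with counts, length and level per kb had a Spearman correlation of 0.45, given as a description, since all points share the same libraries. How well the library preparation recovered RNAs of different lengths was not tested. Counts and levels per kb therefore do not rank the members by abundance in the cell.

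**Figure D1:**
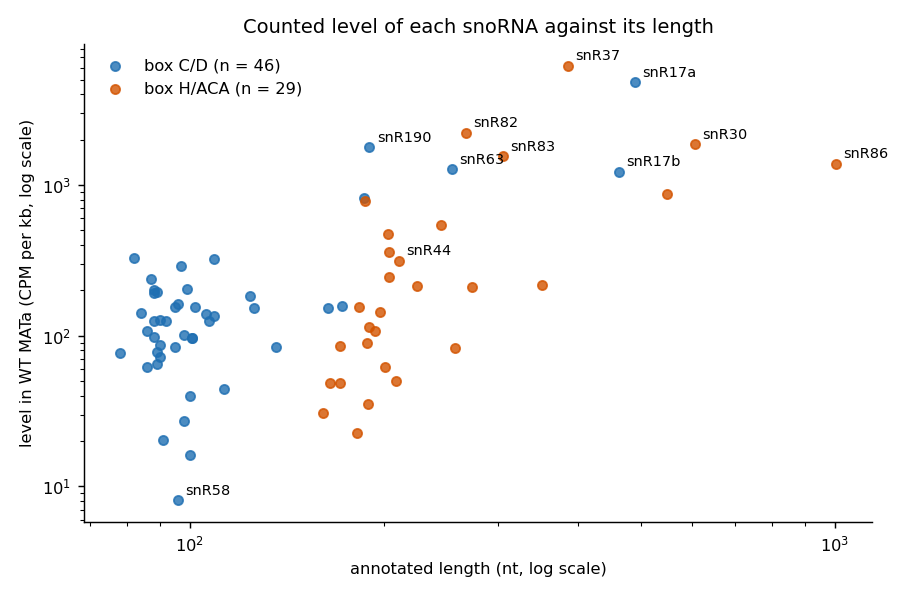
Level of each snoRNA in WT MATa (CPM per kb of annotated length, mean of 3 libraries, log scale) against annotated length (nt, log scale), with box C/D and box H/ACA members in separate colours. The lengths of snR17a and snR17b include their intron. Members of at least 200 nt had a median of 507 CPM per kb and those under 100 nt a median of 116 CPM per kb.

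Of the 76 members, 74 passed the filter on low counts. The exceptions were snR60, with 0 counts in all 12 libraries, and snR58, with 1 to 9 counts per library. Both are box C/D methylation guides. The annotated span of snR60 overlaps YJL047C-A on the same strand, which had 26 to 74 counts per library, and how reads over both were assigned is not given in the sources used here.

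In MATa cells, most snoRNAs did not pass the test of tup1 against WT. Of the 74 tested, 10 rose and 3 fell (edgeR's quasi-likelihood test, Benjamini-Hochberg adjusted p under 0.05), 17.6% of members, beside 41.4% of all rows tested (24.7% higher and 16.7% lower). Their median log2 fold change was 0.06, against -0.01 over all rows, and none of the calls reached 2-fold. By class, 6 box C/D members rose and 2 fell of 45, with a median of 0.09, and 4 box H/ACA members rose and 1 fell of 29, with a median of 0.03. With tup1 MATa replicate 1 left out, these medians were -0.11 and -0.14, and 5 box C/D members rose and 7 fell and 3 box H/ACA members rose and 7 fell. In 13 members all 3 tup1 libraries lay above all 3 WT libraries and in 2 they lay below, while 50.4% of all rows had groups that did not overlap (27.2% above and 23.2% below). Among snoRNAs with a mean of at least 1000 counts 3 of 13 were called, with a median standard error of 0.13, and 53.2% of all rows at that level were, with one of 0.07. The count depended on single libraries: without WT MATa replicate 1 or replicate 3 it fell to 4 or 3 risen members, without tup1 MATa replicate 3 to 1 fallen member, and without tup1 MATa replicate 1 it became 8 risen and 14 fallen, beside 44.1% of all rows called. Without WT MATa replicate 1, WT MATa replicate 3 and tup1 MATa replicate 3, the shares of all rows called were 32.8%, 33.0% and 38.0%. Upper-quartile scaling, which moved the median of all rows to -0.12, gave 3 risen and 8 fallen members, beside 51.1% of all rows called.

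**Figure D2:**
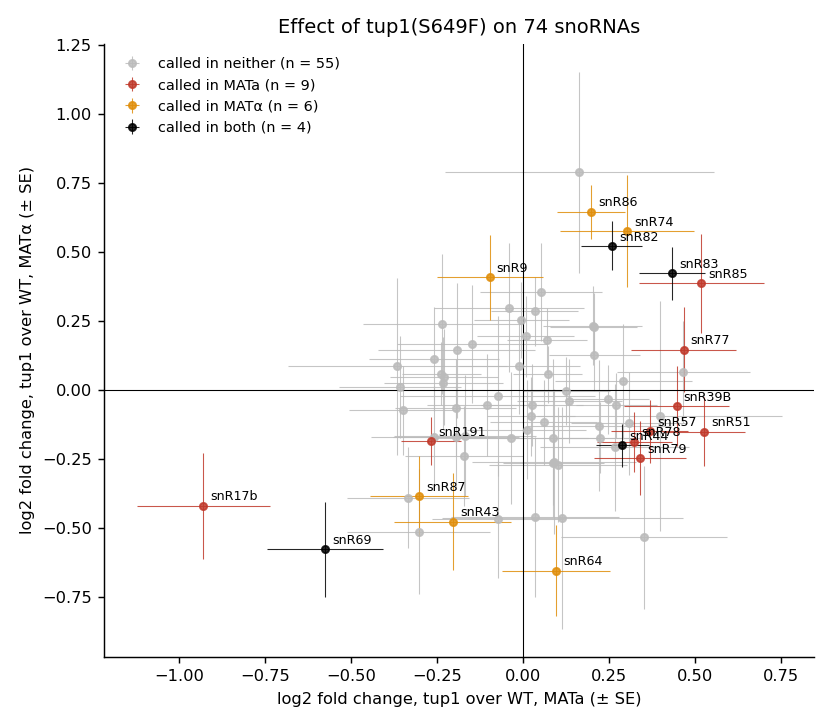
Log2 fold change of tup1 over WT in MATa (x) and in MATalpha (y) for the 74 snoRNAs tested, with standard errors as bars and colours for calls at an adjusted p under 0.05. Most points sit near 0 on both axes, 55 members were called in neither mating type, and snR17b lies farthest left at -0.93.

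Of the members that fell in MATa, snR17b, the less abundant U3 gene, changed most. It had 427, 229.7 and 234 CPM in tup1 MATa, against 582, 569 and 548 CPM in WT MATa. All mutant libraries lay below all WT libraries, and its log2 fold change was -0.93 ± 0.19 (SE, adjusted p = 0.0024). In tup1 MATalpha it had 407, 433 and 358 CPM, against 499.8, 540.4 and 562 CPM in WT MATalpha, again without overlap, with a log2 fold change of -0.42 ± 0.19 (SE, adjusted p = 0.0775) that did not pass the test with all libraries. Leaving out tup1 MATa replicate 1, the MATa value was -1.28 (adjusted p = 6.93e-13) and the MATalpha value -0.42 (adjusted p = 3.48e-06), and without tup1 MATa replicate 2 the MATalpha adjusted p was 0.0403. The MATalpha value also passed with the MATalpha libraries alone (adjusted p = 6.03e-05) and under upper-quartile scaling (0.0142). It passed in 4 of 18 alternatives. snR17a, the main U3 gene, had 3477, 2481 and 2198 CPM in tup1 MATa, against 2421, 2337 and 2327 CPM in WT MATa. In tup1 MATalpha it had 3231, 3604 and 2693 CPM, against 2375, 2963 and 2773 CPM in WT MATalpha. The snR17a groups overlapped in both mating types, and its log2 fold changes were 0.20 ± 0.14 (SE, adjusted p = 0.278) and 0.23 ± 0.14 (SE, adjusted p = 0.169); without tup1 MATa replicate 1 the MATalpha value of 0.23 passed with an adjusted p of 0.039.

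The share of U3 counts assigned to snR17b was 10.9%, 8.47% and 9.62% in tup1 MATa, against 19.4%, 19.6% and 19.1% in WT MATa. In MATalpha it was 11.2%, 10.7% and 11.7% in tup1 and 17.4%, 15.4% and 16.8% in WT. The group means were 9.68 ± 1.24% in tup1 MATa and 19.3 ± 0.260% in WT MATa, and 11.2 ± 0.504% in tup1 MATalpha and 16.6 ± 1.01% in WT MATalpha (SD, n = 3). The lowest WT share was above the highest tup1 share in each mating type, also with tup1 MATa replicate 1 in place. Summed over both genes, U3 averaged 3015 ± 782 CPM in tup1 MATa and 2928 ± 66.8 CPM in WT MATa, and 3575 ± 496 CPM in tup1 MATalpha and 3238 ± 325 CPM in WT MATalpha (SD, n = 3), with overlapping groups in both. These shares carry the uncertainty between copies given above.

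Unlike the genes, the regions before the U3 genes had little sequence in common: over 295 aligned positions the 250 bases upstream were 51.9% identical, and the longest shared run was 10 bases. They are shown 5′ to 3′ on the strand of each gene (chrXV:779857-780106, plus strand; chrXVI:281518-281767, minus strand), with the match to a motif of the Tbf1 type, which many yeast snoRNA promoters carry, in capitals.
snR17a upstream: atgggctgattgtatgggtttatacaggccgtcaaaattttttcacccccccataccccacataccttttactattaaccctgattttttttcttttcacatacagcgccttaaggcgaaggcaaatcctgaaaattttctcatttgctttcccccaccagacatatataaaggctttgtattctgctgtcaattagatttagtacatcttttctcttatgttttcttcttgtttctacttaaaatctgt
snR17b upstream: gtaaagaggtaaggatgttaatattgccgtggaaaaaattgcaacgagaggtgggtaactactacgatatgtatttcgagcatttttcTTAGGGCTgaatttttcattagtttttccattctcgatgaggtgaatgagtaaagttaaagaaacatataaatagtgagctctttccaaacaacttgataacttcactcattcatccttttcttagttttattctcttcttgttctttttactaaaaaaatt
The capitals in the snR17b window are AGCCCTAA on the other strand. The snR17a window held no match to AACCCTAA, AGCCCTAA or the Reb1 motif TTACCCG on either strand.

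**Figure D3:**
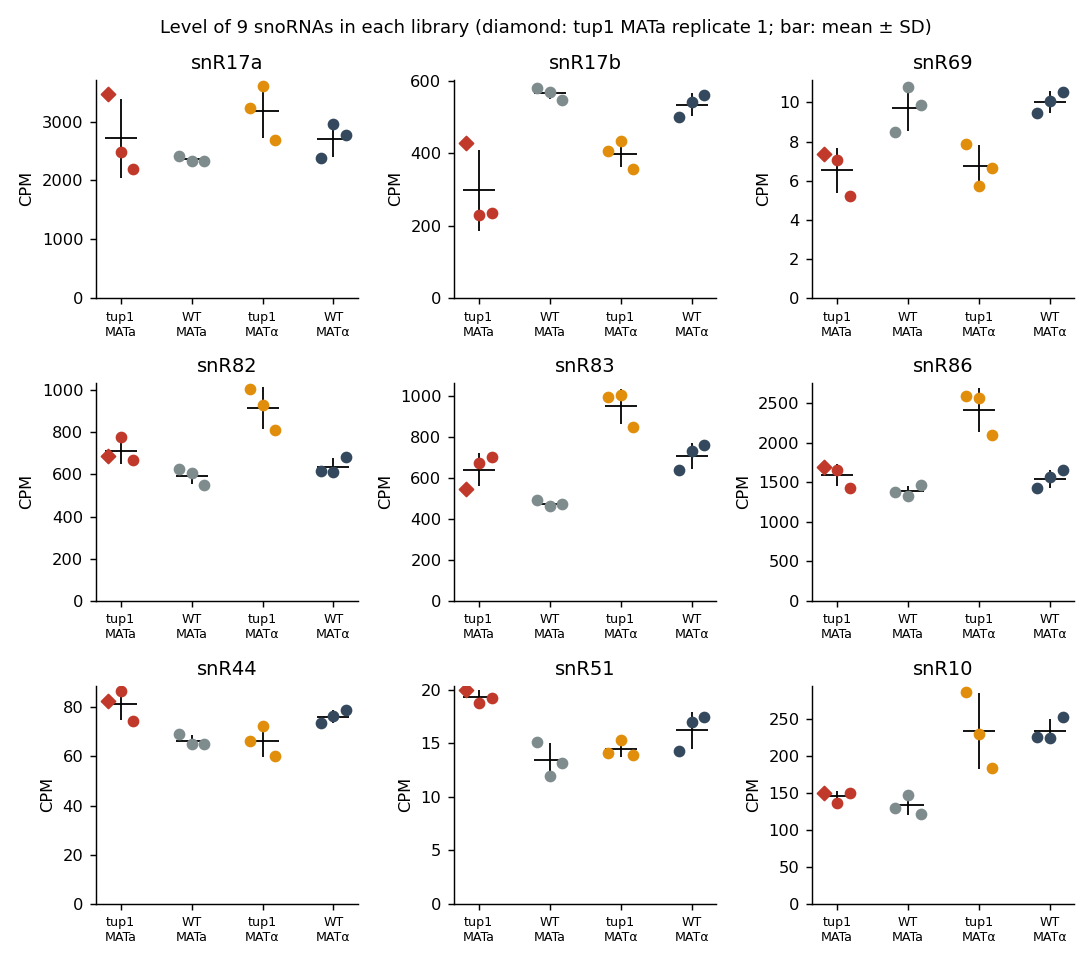
Level (CPM) of 9 snoRNAs in each library, by group, tup1 left of WT within each mating type; points are libraries, a diamond marks tup1 MATa replicate 1 and bars give mean ± SD (n = 3). snR17b is lower in tup1 in both mating types without overlap, snR86 is higher in tup1 MATalpha, and snR44 is higher in tup1 MATa and lower in tup1 MATalpha.

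Among box C/D methylation guides, 6 rose in tup1 MATa. snR51, which guides methylation of both subunits' rRNA, had 20.01, 18.8 and 19.3 CPM in tup1 MATa, against 15.2, 11.9 and 13.2 CPM in WT MATa, a log2 fold change of 0.53 ± 0.12 (SE, adjusted p = 0.00149). snR77, a small-subunit guide, had 23.4, 23.5 and 23.3 CPM against 15.7, 18.8 and 16.4 CPM (log2 fold change 0.47 ± 0.15 SE, adjusted p = 0.0205). All mutant libraries lay above all WT libraries for both. The large-subunit guide snR39B followed with 0.45 ± 0.15 (SE, adjusted p = 0.0257), the small-subunit guide snR57 with 0.37 ± 0.11 (SE, adjusted p = 0.0138), the large-subunit guide snR78 with 0.32 ± 0.11 (SE, adjusted p = 0.0235) and the small-subunit guide snR79 with 0.34 ± 0.13 (SE, adjusted p = 0.0499). Groups did not overlap for snR39B, snR57 and snR78 and overlapped for snR79. The snR51 call held in every alternative fit run. Those of snR77, snR57, snR39B and snR78 were lost without WT MATa replicate 1 (adjusted p = 0.0785, 0.0545, 0.104 and 0.098) and without WT MATa replicate 3 (0.0594, 0.0601, 0.0901 and 0.0606), and those of snR39B and snR78 also without tup1 MATa replicate 2 (0.0535 and 0.0806). With upper-quartile scaling these calls were also lost, at 0.0539 for snR77, 0.0588 for snR57, 0.068 for snR39B and 0.1 for snR78. snR79 lay at the threshold and passed in 3 of 18 alternative fits; its adjusted p was 0.0518 to 0.18 without replicate 1 or 3 of tup1 MATa, tup1 MATalpha or WT MATa, or any WT MATalpha replicate.

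snR69, a box C/D guide for the large-subunit rRNA, fell in both mating types. It had 7.35, 7.03 and 5.21 CPM in tup1 MATa, against 8.48, 10.8 and 9.85 CPM in WT MATa (log2 fold change -0.58 ± 0.17 SE, adjusted p = 0.00997). In tup1 MATalpha it had 7.87, 5.70 and 6.65 CPM, against 9.44, 10.1 and 10.5 CPM in WT MATalpha (log2 fold change -0.58 ± 0.17 SE, adjusted p = 0.00649). Groups did not overlap in either mating type, and the difference between the 2 effects was -0.00059 ± 0.26 (SE, adjusted p = 0.999). The MATa call was lost without tup1 MATa replicate 3 (adjusted p = 0.0639) or WT MATa replicate 2 (0.0576); the MATalpha call held in every alternative.

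Among box H/ACA pseudouridylation guides, snR83, a small-subunit guide, rose in both mating types. It had 549, 672 and 705 CPM in tup1 MATa, against 491, 462 and 475 CPM in WT MATa (log2 fold change 0.43 ± 0.10 SE, adjusted p = 0.00131), and 996, 1006 and 849.7 CPM in tup1 MATalpha, against 637, 730.3 and 761 CPM in WT MATalpha (log2 fold change 0.42 ± 0.10 SE, adjusted p = 7.79e-04). Groups did not overlap in either, and replicate 1 of tup1 MATa was the lowest of its group for this member. snR82, a large-subunit guide, had 686, 776 and 667 CPM in tup1 MATa, against 623, 605 and 552 CPM in WT MATa (log2 fold change 0.26 ± 0.09 SE, adjusted p = 0.0264). In tup1 MATalpha it had 1005, 927 and 810.5 CPM, against 616, 612 and 684 CPM in WT MATalpha (log2 fold change 0.52 ± 0.09 SE, adjusted p = 4.56e-05). The snR82 groups did not overlap either; its MATa call was lost without tup1 MATa replicate 2 (adjusted p = 0.136), without WT MATa replicate 3 (0.106) and under upper-quartile scaling (0.144). Both snR83 calls and the MATalpha call of snR82 held in all 18 alternatives.

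The lightly counted snR85, a small-subunit guide, had 12.8, 12.1 and 11.0 CPM in tup1 MATa, against 6.57, 10.6 and 7.90 CPM in WT MATa, without overlap (log2 fold change 0.52 ± 0.18 SE, adjusted p = 0.0291). This call was lost without tup1 MATa replicate 1 (adjusted p = 0.0591), tup1 MATa replicate 2 (0.0655), WT MATa replicate 1 (0.149) or WT MATa replicate 3 (0.0773), and under upper-quartile scaling (0.0644). snR191, a large-subunit guide within an intron of NOG2, was the lone box H/ACA member that fell in MATa. It had 54.4, 45.4 and 43.9 CPM in tup1, against 63.7, 55.3 and 54.2 CPM in WT (log2 fold change -0.27 ± 0.09 SE, adjusted p = 0.0195). The groups overlapped through tup1 MATa replicate 1, and the call was lost without tup1 MATa replicate 2 (0.0741), tup1 MATa replicate 3 (0.095) or WT MATa replicate 1 (0.144). In MATalpha it was at -0.19 ± 0.09 (SE, adjusted p = 0.073) and passed without tup1 MATa replicate 1 (0.0292) or tup1 MATalpha replicate 1 (0.0432). It also passed there with the MATalpha libraries alone (0.039) and under upper-quartile scaling (0.00232).

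In MATalpha cells 5 snoRNAs rose and 5 fell in tup1 relative to WT, 13.5% of the 74 tested, beside 63.1% of all rows (32.0% higher and 31.0% lower). The median log2 fold change was -0.06, against -0.03 over all rows, and again no call reached 2-fold. Box H/ACA members had 4 risen and 2 fallen of 29, with a median of 0.06, and box C/D members 1 risen and 3 fallen of 45, with a median of -0.12. Groups lay wholly above WT for 10 members and wholly below for 13, beside 68.5% of all rows without overlap (34.0% above and 34.4% below). At a mean of at least 1000 counts, 4 of 13 snoRNAs were called (median standard error 0.13), against 72.0% of all rows (median standard error 0.07). These counts moved with the libraries used: 10 risen and 11 fallen without tup1 MATa replicate 1 (66.7% of all rows called), 3 risen without tup1 MATalpha replicate 1, 3 risen and 8 fallen without tup1 MATalpha replicate 2, 8 risen and 3 fallen without tup1 MATalpha replicate 3, and 2 fallen without WT MATalpha replicate 3. The other fits just listed called 58.5% to 60.6% of all rows. A MATa library enters the MATalpha tests through the shared spread, scaling and filter, not through the levels compared. With the MATalpha libraries alone the count was 12 risen and 11 fallen, beside 64.8% of all rows called. With upper-quartile scaling, which moved the median of all rows to -0.18, it was 3 and 17, beside 69.9% of all rows called. Across the 74 members, length had a Spearman correlation of 0.32 with the MATalpha log2 fold change, of 0.13 among the 54 under 200 nt, and of -0.22 with the MATa log2 fold change over all 74, given as descriptions.

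snR86, the longest snoRNA and a large-subunit pseudouridylation guide, had the lowest adjusted p in MATalpha. It had 2583, 2563 and 2097 CPM in tup1 MATalpha, against 1423, 1562 and 1649 CPM in WT MATalpha, without overlap (log2 fold change 0.64 ± 0.10 SE, adjusted p = 1.25e-05). In tup1 MATa it had 1689, 1659 and 1429.5 CPM, against 1375, 1330.3 and 1460.1 CPM in WT MATa, where the groups overlapped (log2 fold change 0.20 ± 0.10 SE, adjusted p = 0.115); without tup1 MATa replicate 3 that value passed with an adjusted p of 0.0386, and without tup1 MATa replicate 1 it was 0.16 (adjusted p = 0.137). The MATalpha call held in all 18 alternatives. snR9, a large-subunit guide, had 207, 196 and 174 CPM in tup1 MATalpha, against 135, 148 and 153 CPM in WT MATalpha, also without overlap (log2 fold change 0.41 ± 0.15 SE, adjusted p = 0.0351). Its call was lost without tup1 MATa replicate 3, tup1 MATalpha replicate 1 or 2, or WT MATalpha replicate 1 or 2, with adjusted p of 0.0534 to 0.105, and under upper-quartile scaling (0.138). snR74, a box C/D guide for the small subunit, had 13.5, 13.3 and 7.30 CPM in tup1 MATalpha, against 8.16, 7.85 and 6.68 CPM in WT MATalpha (log2 fold change 0.58 ± 0.20 SE, adjusted p = 0.0182). Its groups overlapped through tup1 MATalpha replicate 3, and the call was lost without tup1 MATalpha replicate 1 or 2 or WT MATalpha replicate 3 (adjusted p of 0.0646 to 0.113) and under upper-quartile scaling (0.0644).

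Of the members that fell in MATalpha, snR64, a box C/D guide for the large subunit, had the largest change. It had 8.60, 7.75 and 7.14 CPM in tup1 MATalpha, against 11.3, 11.8 and 14.1 CPM in WT MATalpha (log2 fold change -0.65 ± 0.16 SE, adjusted p = 0.00187), and 11.0, 9.32 and 11.0 CPM in tup1 MATa, against 8.84, 12.1 and 8.46 CPM in WT MATa (log2 fold change 0.10 ± 0.16 SE, adjusted p = 0.666). Groups did not overlap in MATalpha and overlapped in MATa. snR43, a box H/ACA guide for the large subunit, had 9.34, 8.48 and 6.65 CPM in tup1 MATalpha, against 10.5, 11.1 and 12.6 CPM in WT MATalpha (log2 fold change -0.48 ± 0.18 SE, adjusted p = 0.0241). snR87, a box C/D guide for the small subunit, had 12.1, 11.0 and 12.5 CPM, against 16.1, 13.3 and 16.8 CPM (log2 fold change -0.39 ± 0.14 SE, adjusted p = 0.0265). Neither had overlapping groups. The snR43 call was lost without tup1 MATalpha replicate 3 (adjusted p = 0.116) or WT MATalpha replicate 3 (0.0839), and the snR87 call without tup1 MATalpha replicate 2 (0.0963) or WT MATalpha replicate 1 (0.0907) or 3 (0.0872) and in DESeq2 (0.0597). In MATa, snR87 was at -0.30 ± 0.14 (SE, adjusted p = 0.0952) and passed without WT MATa replicate 3 (adjusted p = 0.0486) and under upper-quartile scaling (0.0255). snR77 and snR85, called in MATa, passed in MATalpha only without tup1 MATalpha replicate 3 among the fits with a library left out (adjusted p = 0.00745 and 0.013).

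snR44, a box H/ACA guide for both subunits' rRNA that lies in an intron of RPS22B, moved in opposite directions. It had 82.6, 86.6 and 74.3 CPM in tup1 MATa, against 69.1, 65.1 and 64.9 CPM in WT MATa (log2 fold change 0.29 ± 0.08 SE, adjusted p = 0.00519). In tup1 MATalpha it had 66.1, 72.5 and 60.0 CPM, against 73.5, 76.3 and 78.9 CPM in WT MATalpha (log2 fold change -0.20 ± 0.08 SE, adjusted p = 0.032). The groups did not overlap in either mating type, and the difference between the effects was -0.49 ± 0.11 (SE, adjusted p = 0.00309). The MATa call and the difference held in every alternative; the MATalpha call was lost without tup1 MATalpha replicate 1 or 3, without WT MATalpha replicate 2 or 3 (adjusted p of 0.0614 to 0.151) and in DESeq2 (0.0803). Its host RPS22B, a small-subunit ribosomal protein gene, had log2 fold changes of 0.17 ± 0.08 (SE, adjusted p = 0.0849) in MATa and 0.06 ± 0.08 (SE, adjusted p = 0.495) in MATalpha.

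Taking both mating types, 4 members were called in each, of which snR69, snR82 and snR83 moved the same way and snR44 did not, and 55 were called in neither. The 2 comparisons contrast different libraries, but 1 fit of all 12 gave the spread for both, so their tests are not separate. The test of the difference between the effects (MATalpha effect minus MATa effect) called 1 member as higher and 6 as lower, beside 23.9% of all rows. The higher one was snR86 (difference of 0.45 ± 0.14 SE, adjusted p = 0.0239). The lower ones were snR64 (difference of -0.75 ± 0.23 SE, adjusted p = 0.0216), snR51 (difference of -0.68 ± 0.17 SE, adjusted p = 0.00741), snR79 (difference of -0.59 ± 0.19 SE, adjusted p = 0.0304), snR57 (difference of -0.52 ± 0.16 SE, adjusted p = 0.0247), snR78 (difference of -0.51 ± 0.15 SE, adjusted p = 0.0206) and snR44. Of these 6, snR64 was called in MATalpha alone, snR51, snR79, snR57 and snR78 in MATa alone, and each had the opposite sign of log2 fold change in the other mating type. Leaving out tup1 MATa replicate 1, the counts were 12 higher, snR86 among them, and 5 lower, all of the 6 except snR79, beside 34.5% of all rows. Without WT MATa replicate 1 or 3, or WT MATalpha replicate 2, the lower ones came to 2, 3 and 3. No member was called higher without tup1 MATa replicate 3, tup1 MATalpha replicate 1 or 2, WT MATa replicate 3 or WT MATalpha replicate 1. The fits named in the last 2 sentences called 18.5% to 23.4% of all rows.

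Leaving out tup1 MATa replicate 1 changed which members stood out in MATa. The 8 members that then rose were all among the 10: snR51 at 0.51 (adjusted p = 0.00325), snR83 at 0.54 (adjusted p = 2.65e-06), snR82 at 0.29 (adjusted p = 0.00758), snR44 at 0.28 (adjusted p = 0.00609), snR77 at 0.48 (adjusted p = 0.0272), snR39B at 0.43 (adjusted p = 0.0443), snR57 at 0.40 (adjusted p = 0.0123) and snR78 at 0.36 (adjusted p = 0.0179). Of the other 2, snR85 was at 0.47 (adjusted p = 0.0591) and snR79 at 0.25 (adjusted p = 0.176). Among the 3 that had fallen, snR69 was at -0.67 (adjusted p = 0.00649) and snR191 at -0.36 (adjusted p = 0.00114). The 14 that fell were the earlier 3 plus snR13, snR190, snR30, snR31, snR33, snR35, snR39, snR45, snR46, snR5 and snR70. The median snoRNA log2 fold change was then -0.13, against 0.01 over all rows. snR190, a box C/D RNA that acts in large-subunit maturation, had 430.0, 152 and 200.4 CPM in tup1 MATa, against 359.6, 335 and 316 CPM in WT MATa. Its log2 fold change was -0.37 ± 0.32 (SE, adjusted p = 0.402) with all libraries and -0.92 (adjusted p = 2.64e-05) without that replicate, the lone tup1 MATa library above WT. The divergent pair of pseudouridylation guides snR5 and snR31, 220 bases apart, had like values: snR5 had 64.4, 33.8 and 28.0 CPM in tup1 MATa, against 49.0, 50.1 and 50.1 CPM in WT MATa, and snR31 had 63.4, 31.4 and 30.8 CPM, against 44.9, 53.5 and 45.9 CPM. Their log2 fold changes were -0.24 ± 0.23 (SE, adjusted p = 0.454) and -0.19 ± 0.23 (SE, adjusted p = 0.542) with all libraries, and -0.68 (adjusted p = 4.70e-06) and -0.62 (adjusted p = 4.04e-05) without replicate 1. snR30, the box H/ACA RNA that is essential for making the small subunit, had 1474, 980.1 and 905 CPM in tup1 MATa, against 1131, 1071 and 1169.7 CPM in WT MATa, with log2 fold changes of -0.01 ± 0.14 (SE, adjusted p = 0.979) and -0.24 (adjusted p = 0.0102) in the same order. In each of these members replicates 2 and 3 lay below all WT MATa libraries and replicate 1 above them.

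**Figure D4:**
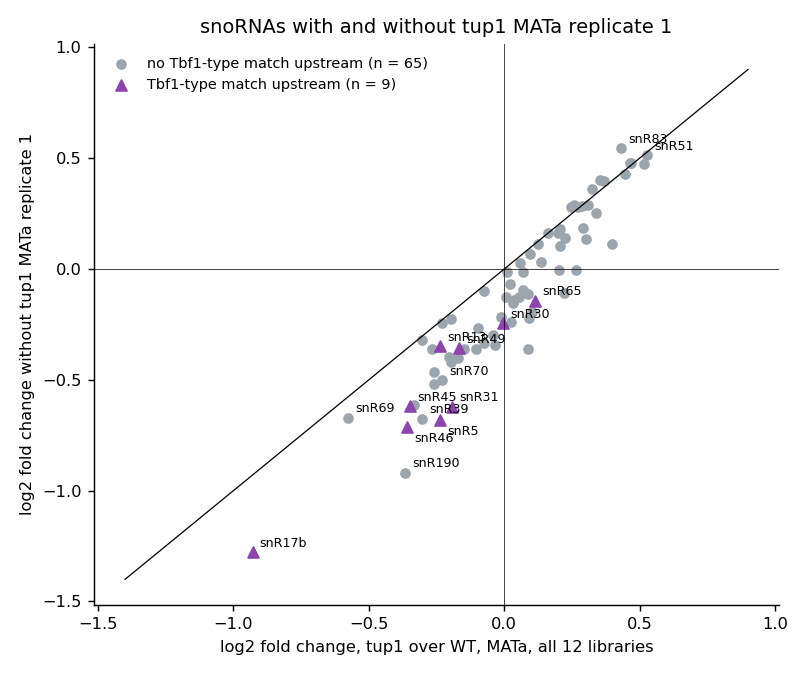
Log2 fold change of tup1 over WT in MATa for the 74 snoRNAs tested, with all 12 libraries (x) and without tup1 MATa replicate 1 (y); the line marks equality and triangles mark members with a Tbf1-type match within 250 bases upstream. Most points lie below the line, and snR17b, at -1.28, and snR190, at -0.92, lie lowest.

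Promoter windows were searched for the motifs that general regulatory factors of snoRNA genes bind. AACCCTAA or AGCCCTAA, of the Tbf1 type, stood on either strand within 250 bases upstream of 9 of 76 members (11.8%): snR13, snR17b, snR30, snR31, snR45, snR46, snR49, snR5 and snR65. The same windows of 73 of 6477 genes of all kinds (1.13%) held a match, and the divergent snR31 and snR5 may share one. Of the 9, 0 rose and 1 fell in tup1 MATa, with a median log2 fold change of -0.24, and without tup1 MATa replicate 1, 7 fell, with a median of -0.62. That replicate was itself high for the 9. Its log2 ratio to the mean of the other tup1 MATa libraries ran from 0.33 (snR13) to 1.05 (snR5). The median over the 74 snoRNAs tested was 0.43, and all of the 9 except snR13 lay above it. Leaving that replicate out therefore lowers tup1 MATa for each of the 9, and a link of the 7 falls to the motif was not tested. Among the other 65 tested, 10 rose and 2 fell, with a median of 0.09, and without that replicate 8 rose and 7 fell, with a median of -0.10. Of all rows tested 16.7% fell with all libraries and 18.2% without that replicate. In MATalpha none of the 9 was called with all libraries, and their median was 0.01, against -0.06 for the others. In the fit without tup1 MATa replicate 1, 2 of the 9 rose and 1 fell, and of the others 8 rose and 10 fell. Of all rows, 32.0% rose and 31.0% fell in MATalpha with all libraries, and 33.7% and 33.0% without that replicate. TTACCCG, bound by Reb1, stood upstream of 8 of 76 members (10.5%) and 441 of 6477 genes (6.81%), and of those 8, 1 rose and 0 fell in MATa, with a median of -0.05. Without tup1 MATa replicate 1, 1 of the 8 rose and 2 fell, with a median of -0.18. Of the members without TTACCCG, 7 then rose and 12 fell, with a median of -0.12. A match describes the letters in the window, and the split by motif was chosen after the values were known.

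TBF1 itself, the gene of that factor, rose by 0.21 on the log2 scale in MATa (adjusted p = 0.0395) and fell in MATalpha (log2 fold change -0.30 ± 0.08 SE, adjusted p = 0.00364). REB1 was at -0.15 ± 0.06 (SE, adjusted p = 0.0753) in MATa and fell in MATalpha (log2 fold change -0.86 ± 0.07 SE, adjusted p = 1.43e-09). RAP1 and ABF1, which bind other snoRNA promoters, fell in MATalpha (-0.55 and -0.65; adjusted p = 2.68e-06 and 1.37e-08). The part of these levels in the snoRNA values was not tested.

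Members cut from one precursor did not all move together. The 7 box C/D guides of the snR78, snR77, snR76, snR75, snR74, snR73 and snR72 cluster on chromosome XIII all had positive log2 fold changes in tup1 MATa, from 0.01 (snR73) to 0.47 (snR77) with a median of 0.27, and snR77 and snR78 were called. Their median without tup1 MATa replicate 1 was 0.16, 5 were positive, snR73 was at -0.13 and snR75 at -0.11, and snR77 and snR78 kept their calls. With all libraries, in MATalpha their median was 0.15 and snR74 was called. snR72, the last of them, had 6.96, 3.65 and 3.57 CPM in tup1 MATalpha, against 2.26, 3.08 and 2.82 CPM in WT MATalpha, and its log2 fold change was not called (log2 fold change 0.79 ± 0.36 SE, adjusted p = 0.0685). In the cluster of snR41, snR70 and snR51 on chromosome XVI, snR51 rose in tup1 MATa while snR70 was at -0.23 ± 0.16 (SE, adjusted p = 0.258) and snR41 at -0.11 ± 0.17 (SE, adjusted p = 0.668). snR70, a small-subunit guide, had 28.7, 19.0 and 16.4 CPM in tup1 MATa, against 25.4, 23.9 and 26.1 CPM in WT MATa, and with tup1 MATa replicate 1 left out its log2 fold change was -0.50 (adjusted p = 0.00244), while that of snR51 was 0.51 (adjusted p = 0.00325). In the cluster of snR57, snR55 and snR61, snR57 rose while snR55 was at -0.26 ± 0.18 (SE, adjusted p = 0.271) and snR61 at 0.01 ± 0.17 (SE, adjusted p = 0.969). U14 (snR128), which shares its precursor with snR190, had 28.4, 17.0 and 16.7 CPM in tup1 MATa, against 19.0, 21.9 and 17.2 CPM in WT MATa (log2 fold change 0.10 ± 0.20 SE, adjusted p = 0.723), and without replicate 1 it was at -0.19 (adjusted p = 0.358), beside -0.92 for snR190.

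The 8 members within introns had a median log2 fold change of 0.02 in MATa and -0.19 in MATalpha, with snR44 and snR191 called in MATa and snR44 in MATalpha. In the fit lacking tup1 MATa replicate 1 the MATa median was -0.33, with 6 of the 8 negative, and snR39 also fell. Of their 8 host genes, 3 fell in MATa (median -0.19) and 5 in MATalpha (median -0.22), and none rose, beside 16.7% and 31.0% of all rows that fell. Without tup1 MATa replicate 1, 6 hosts fell in MATa (median -0.34), beside 18.2% of all rows. EFB1, the gene of a translation elongation factor subunit, fell by 0.45 on the log2 scale in MATa and by 0.55 in MATalpha, while its snR18 was at -0.17 ± 0.17 (SE, adjusted p = 0.456) and -0.24 ± 0.18 (SE, adjusted p = 0.257). RPL7A, a large-subunit ribosomal protein gene, fell by 0.42 and 0.57, and its snR39 was at -0.30 ± 0.21 (SE, adjusted p = 0.262) and -0.51 ± 0.23 (SE, adjusted p = 0.0582). Without tup1 MATa replicate 1 snR39 fell in both, with -0.68 (adjusted p = 0.00193) and -0.51 (adjusted p = 0.00487). Its MATalpha value also passed without tup1 MATa replicate 3 (0.0202) or tup1 MATalpha replicate 2 (0.0215). The same value passed with the MATalpha libraries alone (0.00796) and under upper-quartile scaling (0.0126). NOG2, needed for large-subunit maturation, fell by 0.24 and 0.64, beside -0.27 and -0.19 for its snR191. TEF4, another elongation factor gene, and RPL7B fell in MATalpha and were not called in MATa (by 0.27 and 0.16), with snR38 at -0.21 ± 0.23 (SE, adjusted p = 0.447) and snR59 at 0.30 ± 0.23 (SE, adjusted p = 0.276) there. In MATa, TEF4 was at -0.17 ± 0.10 (SE, adjusted p = 0.167) with snR38 at 0.27, and RPL7B at -0.11 ± 0.07 (SE, adjusted p = 0.232) with snR59 at -0.04. ASC1 and IMD4 were called in neither mating type (-0.14 and -0.06; -0.21 and 0.0039) with all libraries. Without tup1 MATa replicate 1, TEF4, ASC1 and IMD4 also fell in MATa, with -0.26 (adjusted p = 0.00389), -0.45 (adjusted p = 9.25e-04) and -0.41 (adjusted p = 3.12e-05). snR24, in ASC1, was at 0.09 and -0.17, and snR54, in IMD4, at 0.21 and 0.23, and neither was called. snR54 was above WT in every tup1 library of both mating types, with 13.7, 12.9 and 12.3 CPM in tup1 MATalpha, against 10.5, 11.1 and 11.7 CPM in WT MATalpha.

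The guides of the small-subunit rRNA acetylations, snR4 and snR45, were not called in either mating type. snR4 had 194, 131 and 178 CPM in tup1 MATa, against 156, 163 and 139.8 CPM in WT MATa (log2 fold change 0.13 ± 0.15 SE, adjusted p = 0.523), and was at -0.04 ± 0.15 (SE, adjusted p = 0.828) in MATalpha; without tup1 MATa replicate 1 the MATa value was 0.03 (adjusted p = 0.909). snR45 had 28.6, 18.0 and 17.2 CPM, against 25.6, 30.5 and 25.4 CPM (log2 fold change -0.35 ± 0.16 SE, adjusted p = 0.0857), and without tup1 MATa replicate 1 it was at -0.62 (adjusted p = 3.72e-04); in MATalpha it was at -0.07 ± 0.16 (SE, adjusted p = 0.706). Groups overlapped for both RNAs in both mating types. The polymerase III transcript snR52, a methylation guide, had 7.51, 8.62 and 5.84 CPM in tup1 MATalpha, against 10.5, 8.69 and 11.3 CPM in WT MATalpha, without overlap but short of the threshold (log2 fold change -0.47 ± 0.21 SE, adjusted p = 0.065). It passed without tup1 MATa replicate 1 (adjusted p = 0.024), tup1 MATalpha replicate 2 (0.0419) or WT MATalpha replicate 2 (0.046). It also passed with the MATalpha libraries alone (0.0243) and under upper-quartile scaling (0.0143). In MATa it was at -0.07 ± 0.19 (SE, adjusted p = 0.796). The highly counted snR37 had 2489.5, 3003 and 2417 CPM in tup1 MATalpha, against 1983, 2229 and 2286 CPM in WT MATalpha, without overlap (log2 fold change 0.28 ± 0.13 SE, adjusted p = 0.0569). It passed without tup1 MATa replicate 1 (0.00152), tup1 MATa replicate 3 (0.032) or tup1 MATalpha replicate 3 (0.0454), and in DESeq2 (0.0415). It also passed with the MATalpha libraries alone (0.0068) and with no filter on low counts (0.0483), in all 6 of 18 alternatives. In MATa it was at 0.03 ± 0.13 (SE, adjusted p = 0.862). snR30 in MATalpha had 1389, 1498 and 1303 CPM in tup1, against 1058, 1214 and 1249 CPM in WT, without overlap (log2 fold change 0.25 ± 0.14 SE, adjusted p = 0.122), and without tup1 MATa replicate 1 the adjusted p was 0.00186. With the MATalpha libraries alone it was 0.00714, and the value passed in 2 of 18 alternatives.

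Between the mating types, 2 snoRNAs were higher in MATalpha than in MATa in WT cells and 0 lower, beside 0.902% of all rows called (edgeR's quasi-likelihood test). An unadjusted p under 0.05 was found for 16 members (12 higher and 4 lower), beside 891 of 5654 rows (512 higher and 379 lower). DESeq2 called 3 higher and 0 lower, beside 1.26% of all rows. Without tup1 MATa replicate 1 the fit called 4 higher and 5 lower (7.03% of all rows called), and without WT MATa replicate 2 it called 4 higher (0.476%). Without tup1 MATa replicate 3 it called 1 lower (1.62%), and with the WT libraries alone 10 and 8 (19.7%). snR10, a pseudouridylation guide that also acts in rRNA precursor cleavage, had 225, 224 and 252 CPM in WT MATalpha, against 129.6, 147 and 122 CPM in WT MATa (log2 fold change 0.81 ± 0.12 SE, adjusted p = 0.00376). In the mutants it had 286, 229.9 and 184 CPM in tup1 MATalpha, against 149.6, 136 and 149 CPM in tup1 MATa (log2 fold change 0.68 ± 0.13 SE, adjusted p = 7.64e-04). All MATalpha libraries lay above all MATa libraries. tup1 and WT differed by 0.13 in MATa and -0.0035 in MATalpha, neither called, and the MATa value was 0.11 (adjusted p = 0.636) without tup1 MATa replicate 1. The nearest gene upstream of snR10, on the opposite strand 832 bases away, is the alpha-factor gene MF(ALPHA)2, whose level was 648, 719.7 and 753 CPM in WT MATalpha, against 0.597, 0.377 and 0.277 CPM in WT MATa. In tup1 MATalpha it had 2089, 1399 and 1802 CPM, above all WT MATalpha libraries, a log2 fold change over WT MATalpha of 1.32 ± 0.11 (SE, adjusted p = 1.07e-08), beside -0.0035 for snR10. The span of snR10 also overlaps YGL088W on the same strand, which was not analysed here.

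snR83 was the other member called in WT, higher in MATalpha than in MATa by 0.58 ± 0.10 (SE, adjusted p = 0.00281), and in tup1 by 0.57 ± 0.10 (SE, adjusted p = 1.40e-04). In tup1 cells 6 members were higher in MATalpha than in MATa (snR10, snR86, snR83, snR9, snR82 and snR13) and 5 lower (snR71, snR80, snR51, snR11 and snR44), beside 35.0% of all rows. snR86 had the lowest adjusted p of these (log2 fold change 0.60 ± 0.10 SE, adjusted p = 9.48e-05), and in WT it was at 0.15 ± 0.10 (SE, adjusted p = 0.463). snR80, a box H/ACA guide, was lower by 0.49 on the log2 scale in tup1 MATalpha (adjusted p = 0.0103), at -0.37 ± 0.13 (SE, adjusted p = 0.184) in WT. The fit without tup1 MATa replicate 1 had 16 higher and 4 lower, beside 38.9% of all rows called. With tup1 MATa replicate 3, tup1 MATalpha replicate 2 or 3, or WT MATa replicate 2 left out, the lower ones numbered 14, 8, 3 and 8. These fits called 33.0%, 32.5%, 33.0% and 33.5% of all rows in either direction.

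Scaled to the summed snoRNA counts of each library instead of to all genes, which describes unequal change within the class, snR83 rose in tup1 MATa (0.41, adjusted p = 0.0143) and snR17b, snR69 and snR190 fell (-1.03, -0.65 and -0.50; adjusted p = 7.56e-10, 0.0288 and 0.0232), beside 22.0% of all rows (15.5% higher and 6.49% lower). In tup1 MATalpha only snR86 rose (0.37, adjusted p = 0.00118) and 21 members fell, with a class median of -0.34, beside 61.2% of all rows called (19.0% higher and 42.2% lower) and a median of -0.30 over all rows. Among the 21 were snR64 (-0.93), snR69 (-0.84), snR43 (-0.76), snR52 (-0.75), snR17b (-0.69), snR128 (-0.56) and snR4 (-0.32). The highly counted snR17a, snR37 and snR30, which make up much of that total, were at -0.04, 0.02 and -0.01. The fit without tup1 MATa replicate 1 called 11 risen and 11 fallen in MATa and 2 and 34 in MATalpha, and that without WT MATalpha replicate 1 called 11 fallen in MATalpha. In MATa 0 rose without tup1 MATa replicate 2 or 3, 2 rose without tup1 MATalpha replicate 3, and 2 rose and 1 fell without WT MATa replicate 2. In MATalpha 2 rose without tup1 MATalpha replicate 2 and without either replicate 2 or replicate 3 of tup1 MATa. The shares of all rows called in these fits with a library left out were not computed. Their counts therefore cannot be read as a result about the class.

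Genes of the proteins that bind and process snoRNAs were set beside the RNAs; all calls here fell except those named as risen. Of the 4 box H/ACA core proteins all fell in both mating types, with medians of -0.30 and -0.63: the pseudouridine synthase gene CBF5 by 0.36 and 0.62 on the log2 scale and GAR1 by 0.24 and 0.71. Of the 4 box C/D core proteins, NOP56 and NOP58 fell in MATa and these and the methyltransferase gene NOP1 in MATalpha, with medians of -0.12 and -0.40; NOP1 was at -0.02 ± 0.09 (SE, adjusted p = 0.894) in MATa. Of 10 proteins of the U3 particle 7 fell in MATa and 10 in MATalpha (medians -0.25 and -0.61), IMP4 by 0.39 and 0.97 and RRP9, which binds U3 directly, by 0.20 and 0.83. Of 11 assembly factors 0 rose and 2 fell in MATa and 1 rose (TAH1, 0.40) and 7 fell in MATalpha. Of 20 factors of 3′-end formation and trimming, 1 rose (NRD1, 0.25) and 8 fell in MATa and 0 rose and 11 fell in MATalpha, among them the exosome-associated nuclease gene RRP6 (by 0.51 and 0.67) and its helicase partner MTR4 (by 0.47 and 0.84). RNT1, the endonuclease that cuts snoRNA precursors, fell by 0.45 in MATa and was at -0.20 ± 0.10 (SE, adjusted p = 0.0711) in MATalpha. Of 6 rRNA-modifying and helicase partners 4 fell in MATa and 6 in MATalpha, among them KRE33, the acetyltransferase that snR4 and snR45 guide, by 0.21 and 0.64. The shares of all rows that fell were 16.7% in MATa and 31.0% in MATalpha. Without tup1 MATa replicate 1 the MATa counts were 4 fallen box H/ACA and 3 fallen box C/D core proteins, 5 fallen U3 particle proteins, 2 risen and 1 fallen assembly factor, 4 risen and 7 fallen factors of 3′-end formation and 4 fallen partners, beside 18.2% of all rows that fell.

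Of 4 spliceosomal RNAs tested, LSR1 (U2) rose in both mating types (log2 fold change 0.45 ± 0.12 SE, adjusted p = 0.00513 in MATa and 0.50 ± 0.12 (SE, adjusted p = 0.00128) in MATalpha) and snR19 (U1) in MATalpha (log2 fold change 0.30 ± 0.11 SE, adjusted p = 0.0253). SCR1 rose in MATalpha (log2 fold change 0.42 ± 0.15 SE, adjusted p = 0.0228) and the telomerase RNA TLC1 fell there (log2 fold change -0.37 ± 0.08 SE, adjusted p = 3.85e-04). Of all rows 24.7% rose in MATa and 32.0% in MATalpha. None of 4 such other RNAs was called in MATa. Without tup1 MATa replicate 1, LSR1 was at 0.34 (adjusted p = 0.00456) in MATa, beside 25.9% of all rows higher, while snR7-L (U5) was at -1.04 (adjusted p = 0.00652) and the RNase MRP RNA NME1 at -0.40 (adjusted p = 0.0013).

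**Figure D5:**
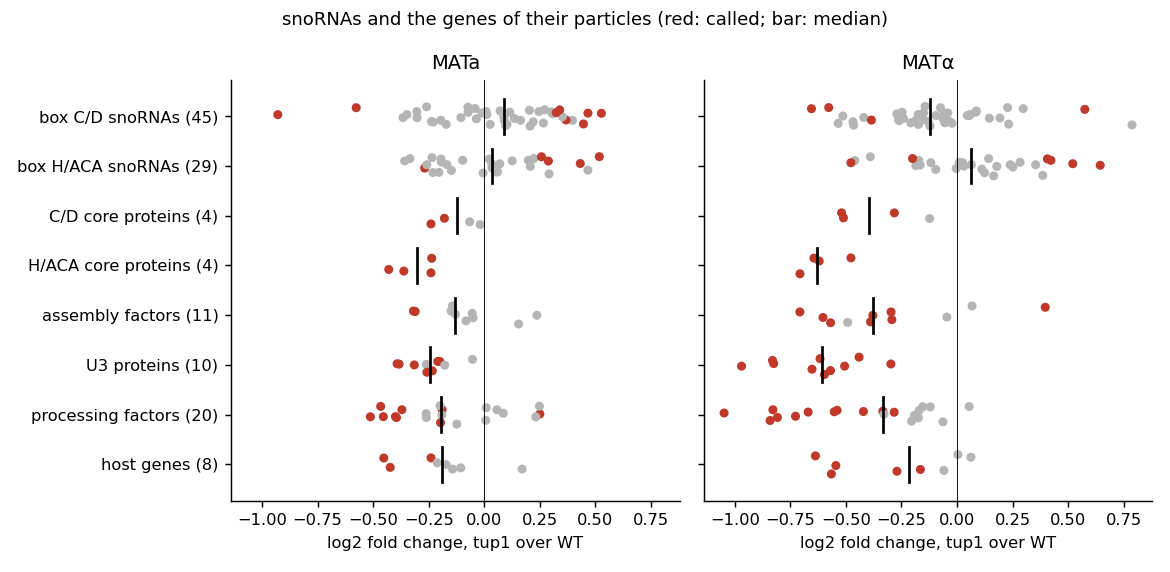
Log2 fold change of tup1 over WT in MATa (left) and MATalpha (right) for snoRNAs by class and for genes of snoRNA-binding, assembly, U3 particle and processing proteins and snoRNA host genes; each point is a gene, red marks an adjusted p under 0.05, bars are medians and numbers in brackets count genes tested. Box H/ACA core proteins had medians of -0.30 and -0.63, while box H/ACA snoRNAs had medians of 0.03 and 0.06 (-0.14 in MATa without tup1 MATa replicate 1).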

How the data were processed

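The authors deposited raw read counts per gene as 1 table of 6219 rows and 12 library columns. The tools listed per the submitters' processing notes were featureCounts 1.6.3 (of Subread), STAR 2.7.3 and cutadapt 2.8, with R64 and sacCer3 as builds. Their order, whether counting used strand, and the treatment of multimapping reads were not given in the sources used here. The analysis used edgeR 4.0.16 (R 4.3.3): filterByExpr by group (minimum count 10) kept 5654 rows, libraries were scaled by TMM, and 1 robust quasi-likelihood fit of 4 group means (8 residual degrees of freedom) gave 2-sided tests of tup1 over WT within MATa and within MATalpha, of how these effects differ, and of MATalpha over MATa. P-values were adjusted by Benjamini-Hochberg across the rows tested and called under 0.05; ± after a log2 fold change is its standard error. The script was tested on simulated data. Members, gene lists and tests were chosen with earlier results of these data known, and lists came from textbook knowledge.

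Members named were fixed ones (U3, U14, snR190, snR30, snR10, snR4, snR45, snR52 and those in introns), the 6 called with the largest change in each direction of the 2 tup1 comparisons and of the difference, host genes, up to 4 called genes per protein list, and the 3 members highest per length. Other members named (snR5, snR31, snR70, snR72, snR80, cluster mates and the genes RRP9, RNT1, KRE33, NOP1, NME1 and snR7-L among them) were chosen after their values were seen. Sequences and positions came from the RefSeq R64 genome, the build the notes name. Alternatives were RLE and upper-quartile scaling, no filter, a replicate block, DESeq2 1.42.0, only the 2 groups compared and leaving out each library. Library totals ran from 5657714 to 9300353 counts, and the standard errors give the precision.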

Additional observations from a re-analysis of the deposited data

Results flagged for a closer look

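The effect of tup1 differed between MATalpha and MATa, by the interaction test of edgeR's quasi-likelihood fit, for 7 snoRNAs, beside 23.9% of all rows tested. The difference (MATalpha effect minus MATa effect, log2) was -0.75 (adjusted p = 0.0216) for snR64, -0.68 (adjusted p = 0.00741) for snR51, -0.59 (adjusted p = 0.0304) for snR79, -0.52 (adjusted p = 0.0247) for snR57, -0.51 (adjusted p = 0.0206) for snR78, -0.49 (adjusted p = 0.00309) for snR44 and 0.45 (adjusted p = 0.0239) for snR86. snR44 and snR51 kept the call in all 17 alternatives, snR78 in 15, snR64 in 14, snR57 and snR86 in 12 and snR79 in 9. snR64 lost it without WT MATa replicate 1 or 3 or WT MATalpha replicate 3, and snR78 lost it without WT MATalpha replicate 2 or WT MATa replicate 1. snR79 lost it in DESeq2 and without tup1 MATa replicate 1 or 3, tup1 MATalpha replicate 2, WT MATa replicate 1 or 3, or WT MATalpha replicate 2 or 3. snR57 lost it without tup1 MATalpha replicate 3, WT MATa replicate 1 or 3 or WT MATalpha replicate 2 and in DESeq2, and snR86 without tup1 MATa replicate 3, tup1 MATalpha replicate 1 or 2, WT MATa replicate 3 or WT MATalpha replicate 1.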

How the results depend on the processing

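These settings moved a count of called snoRNAs by more than 1.5 times. Upper-quartile scaling gave 3 risen and 8 fallen in MATa, 3 and 17 in MATalpha, and 9 lower in tup1 MATalpha than in tup1 MATa. The shares of all rows called in these comparisons were 51.1%, 69.9% and 36.5%. DESeq2 gave 3 fallen in MATalpha, beside 54.5% of all rows called. Fitting only the 2 groups compared gave 12 risen and 11 fallen in MATalpha, beside 64.8% of all rows called. It gave 10 higher and 8 lower in WT MATalpha than in WT MATa, beside 19.7% of all rows called. Whether same-numbered replicates share a batch is not in the labels, and correlations of -0.29 to 0.12 between their deviations cannot decide it. A replicate block gave 9 risen and 3 fallen in MATa and 5 and 5 in MATalpha, beside 39.5% and 61.85% of all rows called. It gave 2 risen in MATalpha relative to the snoRNA total. Leaving out each library in turn gave 3 to 12 risen and 1 to 14 fallen in MATa, 3 to 10 and 2 to 11 in MATalpha, 0 to 12 higher and 2 to 8 lower for the difference between effects, 4 to 16 and 3 to 14 for mating type in tup1, 2 to 4 and 0 to 5 for mating type in WT, and relative to the snoRNA total 0 to 11 and 1 to 11 in MATa and 1 to 2 and 11 to 34 in MATalpha. Of all rows, these fits called 32.8% to 44.1% in MATa, 56.2% to 66.7% in MATalpha and 18.5% to 34.5% for the difference between effects. For mating type they called 29.6% to 38.9% in tup1 and 0.423% to 7.03% in WT. Shares relative to the snoRNA total were not computed for the replicate block or these fits.

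Uncalled values near 0 changed sign. In MATalpha snR10 was 0.0074 with RLE scaling and 0.0069 in DESeq2. Upper-quartile scaling gave -0.0049 for snR128, -0.019 for snR24, -0.0083 for snR64 and -0.075 for snR37 in MATa, and -0.065 for snR190 and -0.0048 for snR77 in MATalpha. Leaving out libraries gave -0.0038 to 0.33 (snR17a), -0.19 to 0.25 (snR128), -0.36 to 0.36 (snR24), -0.00245 to 0.43 (snR38), -0.15 to 0.14 (snR37), -0.24 to 0.13 (snR30), -0.33 to 0.078 (snR52), -0.27 to 0.078 (snR9) and -0.30 to 0.21 (snR59) in MATa, and -0.016 to 0.14 (snR190), -0.18 to 0.14 (snR10), -0.00196 to 0.37 (snR77), -0.20 to 0.096 (snR4), -0.17 to 0.081 (snR39B) and -0.19 to 0.00865 (snR45) in MATalpha. The causes were not tested. The median standard error of a log2 fold change was 0.19 to 0.20 for members with a mean under 100 counts, beside 0.19 for all rows at that level, and 0.13 for members at 1000 or more, beside 0.07 for all rows.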
